A study of Homo sapiens with 6 samples.

Results

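The miR-143 and miR-145 cluster was followed through the miRNA libraries of A549 and BEAS-2B cells exposed to TGF-β1. The cluster comprised the 4 mature miRNAs hsa-miR-143-3p, hsa-miR-143-5p, hsa-miR-145-5p and hsa-miR-145-3p, taken by name from the 2588 miRNAs counted in every library. They were chosen with the measured increase of miR-143-3p in treated cells already known, so the comparisons with control below are descriptions of selected miRNAs. A549 derives from a lung adenocarcinoma and BEAS-2B from bronchial epithelium, both human, and both were labelled wild type. Cells of each line received no TGF-β1 (control) or TGF-β1 at 1 or 5 ng/mL, and RNA was taken after 48 h. There were 6 groups with 1 library each and no replicates, so no test was made. Intervals are 95% intervals that cover counting error only, and are exact except those for differences in fold change between lines.

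Mature miRNAs are cut from the arms of an RNA hairpin and repress messenger RNAs that pair with their seed, here bases 2 to 8. The hairpins of miR-143 and miR-145 lie side by side and are best known from smooth muscle cells and fibroblasts, whereas epithelial cells usually carry little of either. In smooth muscle, serum response factor and its partner myocardin drive the locus, miR-145-5p represses KLF4, miR-143-3p represses ELK1, and the contractile state is favoured. TGF-β1 is a cytokine that moves epithelial cells toward a mesenchymal state and is the agent of this pulmonary fibrosis model.

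The mature sequences are shown because the 4 miRNAs share a locus but not a seed. They are given from RefSeq (GRCh38.p14), 5′ to 3′, with the seed in capitals. Of the 2588 names, 2281 matched a RefSeq entry, including all 4 members.
hsa-miR-143-3p: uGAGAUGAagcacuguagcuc
hsa-miR-143-5p: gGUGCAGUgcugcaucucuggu
hsa-miR-145-5p: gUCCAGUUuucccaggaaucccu
hsa-miR-145-3p: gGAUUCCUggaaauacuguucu
The 4 seeds were distinct. miR-143-5p lies at chr5:149428944-149428965 and miR-143-3p at chr5:149428978-149428998, while miR-145-5p lies at chr5:149430661-149430683 and miR-145-3p at chr5:149430699-149430720, all on the plus strand. The seed of miR-143-3p was also found in miR-4770 and miR-6088, and the first of these is printed because its letters are close to those of miR-143-3p over its whole length.
hsa-miR-4770: uGAGAUGAcacuguagcu
It lies at chrX:6383907-6383924 on the minus strand, starts with the same 8 bases as miR-143-3p, and its other 10 bases follow in miR-143-3p after a gap of 2 bases. The counts of miR-4770 and miR-6088 were 0 in all 6 libraries, so among the matched names this seed was counted in miR-143-3p alone. The seeds of the other 3 members were found in no other of the 2281 matched names, and the remaining names were not searched.

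The hairpins show how the arms pair up, with both mature arms in capitals.
MIR143: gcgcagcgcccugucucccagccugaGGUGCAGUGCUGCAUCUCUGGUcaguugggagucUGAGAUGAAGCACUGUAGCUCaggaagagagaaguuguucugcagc
MIR145: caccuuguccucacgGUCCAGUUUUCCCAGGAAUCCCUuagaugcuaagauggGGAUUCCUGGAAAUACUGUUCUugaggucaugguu
MIR143 lies at chr5:149428918-149429023 and MIR145 at chr5:149430646-149430733, with 1622 bases between them. Both lie within CARMN, a long intergenic non-coding RNA gene on the same strand, at chr5:149406689-149432835 in GENCODE 29 on GRCh38. Of the 12 CARMN transcripts, 1 spans the hairpins, and in it MIR143 is exonic and MIR145 is intronic. The other 11 transcripts end before the hairpins.

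**Figure D1:**
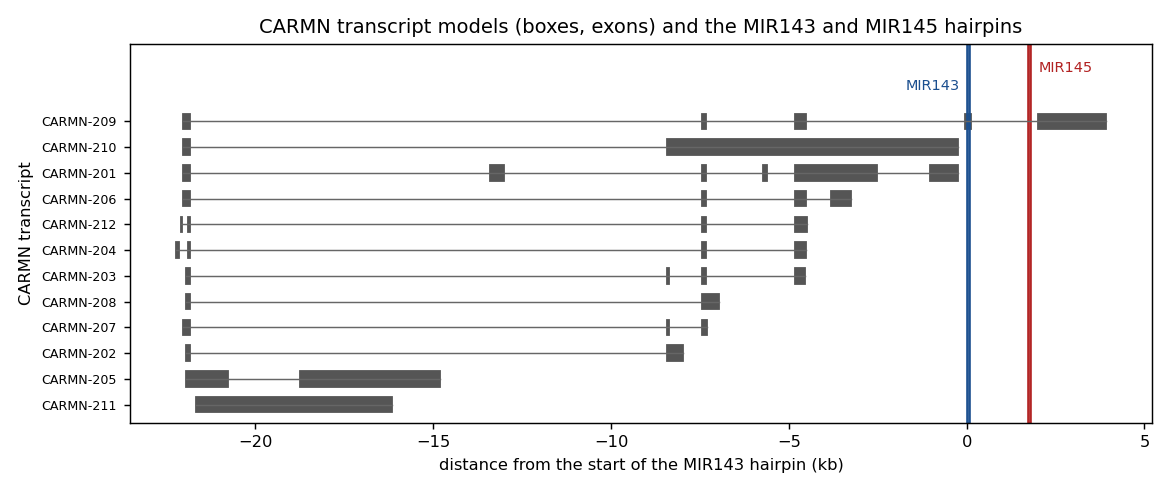
Transcript models of CARMN in GENCODE 29, with boxes for exons and lines for introns, against the distance in kb from the start of the MIR143 hairpin. Of the 12 models, 1 runs past MIR143 (blue line) and MIR145 (red line), and MIR143 lies 22.1 kb downstream of the RefSeq start of CARMN.

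The region around the RefSeq start of CARMN is printed to show motif matches. The motifs are those of serum response factor, those of SMAD proteins, which transmit TGF-β1 signals, and TATAA. The region covers chr5:149406595-149406894 on the plus strand (RefSeq, GRCh38.p14).
CARMN promoter: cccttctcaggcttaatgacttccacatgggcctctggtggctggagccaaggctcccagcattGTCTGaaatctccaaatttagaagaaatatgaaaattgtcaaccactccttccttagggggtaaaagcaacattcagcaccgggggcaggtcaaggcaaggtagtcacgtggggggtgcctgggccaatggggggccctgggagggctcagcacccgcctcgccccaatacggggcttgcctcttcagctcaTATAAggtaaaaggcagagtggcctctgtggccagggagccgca
The capitals mark the matches found among 4 motifs searched on both strands, which did not overlap. The CArG box of serum response factor had 0 matches, and 1.29% of 35116 promoters of the same length held one. The SMAD palindrome GTCTAGAC also had 0 matches, against 0.202% of promoters. The shorter SMAD motif CAGAC matched once, on the minus strand (GTCTG as printed), and 45.3% of promoters held it. The motif TATAA matched once, from base 7 of the transcript, and was held by 20.4% of promoters. These matches describe letters in this window only. The RefSeq start of CARMN lies 22.1 kb upstream of MIR143, and matches nearer the hairpins are not given.

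The libraries held from 633318 to 900424 counts each, and between 902 and 1031 miRNAs had a count. Libraries were scaled by TMM, and normalised counts are on the scale of the mean effective library of 749498 counts. The scaling factors ran from 0.829 to 1.02 in 5 libraries and reached 1.32 in the untreated BEAS-2B library. miR-21-5p held from 35.4% of the counts in that control to 57.2% at 5 ng/mL in the same line. Beside the label of the cells, 6 epithelial miRNAs of the miR-200 family and miR-205 were counted, which does not by itself identify the cells as epithelial. Their summed counts lay between 219 and 384 in A549 and between 297 and 472 in BEAS-2B cells, led by miR-200b-3p throughout, while miR-205-5p had 0 to 2 counts in every library.

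The cluster was low in untreated cells and higher in every treated library of both lines. The summed count of the 4 members in A549 cells was 154 without TGF-β1, 1758 with 1 ng/mL and 1188 with 5 ng/mL. The corresponding sums in BEAS-2B cells were 7, 73 and 110. As normalised counts, the sum was 11.0-fold (9.34 to 13.1) and 8.63-fold (7.29 to 10.3) the control in A549 cells at 1 and 5 ng/mL. The ratios for BEAS-2B cells were 15.7 (7.24 to 40.4) and 20.0 (9.40 to 51.0). Both doses of a line were read against the same control library. In bulk RNA, more cells that express the cluster and more of it per cell cannot be told apart.

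miR-143-3p, the arm that carries most of the cluster, had counts of 148, 1658 and 1106 in A549 cells at 0, 1 and 5 ng/mL. The BEAS-2B libraries held 7, 62 and 101 reads of it. The lowest A549 library lay above the highest BEAS-2B library. Listed miRNAs outside the cluster separated the lines too, such as miR-10b-5p (277 to 407 against 2 to 4 counts) and miR-126-3p (1003 to 1280 against 197 to 393). miR-155-5p did so in the reverse direction. The share over all miRNAs was not counted, so the separation is not read as particular to miR-143-3p. As normalised counts the values were 154, 1665 and 1287 in A549 cells and 5.38, 71.8 and 99.0 in BEAS-2B cells. Ordered by count, miR-143-3p moved from rank 151 in untreated A549 cells to rank 40 (1 ng/mL) and rank 50 (5 ng/mL). The BEAS-2B ranks were 445, 183 and 169. Even so, it made up no more than 0.184% of a library.

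The fold change of miR-143-3p in A549 cells was 10.8 (9.13 to 12.9) with 1 ng/mL and 8.36 (7.03 to 9.99) with 5 ng/mL. BEAS-2B cells gave 13.3 (6.10 to 34.5) and 18.4 (8.61 to 46.9), with wide intervals set by the 7 counts of the control. Every one of these intervals lay beyond 1.4-fold under each of the 7 scalings tried, unscaled counts included.

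miR-145-5p, the main arm of its hairpin, had counts of 5, 70 and 48 in A549 cells and 0, 5 and 5 in BEAS-2B cells. Its fold change in A549 cells was 13.5 (5.52 to 42.9) with the lower dose and 10.7 (4.30 to 34.6) with the higher dose. Treated A549 cells thus held far more reads of this arm than treated BEAS-2B cells. Against the 3 counts that a control at 0 allows, the normalised level in BEAS-2B cells was at least 2.51-fold higher (1 ng/mL) and at least 2.12-fold higher (5 ng/mL), taking the treated count as exact. With the error of both counts, the exact lower limits were 1.38 and 1.17.

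miR-145-3p, the opposite arm, had counts of 1, 17 and 22 in A549 cells and 0, 3 and 2 in BEAS-2B cells. Its ratios to the A549 control were 16.4 (2.57 to 686) and 24.6 (3.98 to 1015), and rest on the 1 count in that control. miR-143-5p, the minor arm of miR-143, had counts of 0, 13 and 12 in A549 cells and 0, 3 and 2 in BEAS-2B cells. Its level in A549 cells was at least 4.18-fold higher at 1 ng/mL and at least 4.47-fold higher at 5 ng/mL than the floor of 3 counts allows in the control, and the exact lower limits were 2.94 and 3.11. Both minor arms were detected in each treated BEAS-2B library and in no untreated one, but at or under that floor, so no fold is given.

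**Figure D2:**
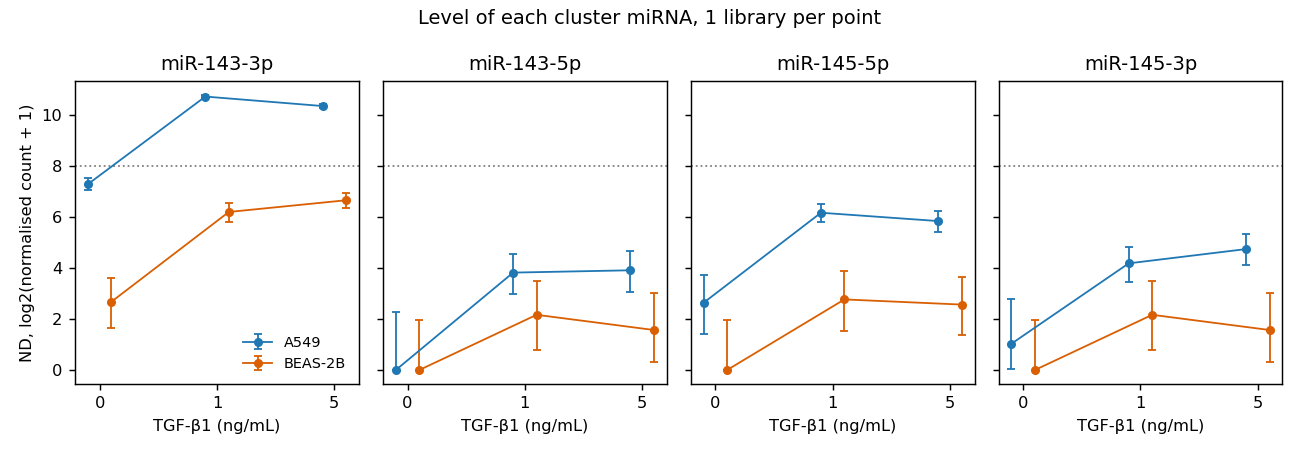
Level of each member as ND, the log2 of the normalised count plus 1, against TGF-β1 dose, with 1 library per point and bars for the exact Poisson interval of the count. All 4 members lay higher in both treated libraries than in the control of each line, and the dotted line at ND 8 was passed by miR-143-3p in treated A549 cells only (10.70 and 10.33).

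The criteria of the study are an ND of 8 or more and a change of 1.4-fold or more, with the ND taken here from the higher library. They were met in A549 cells by 1 of the 4 members, miR-143-3p, at each dose. Of all miRNAs at that level, 27.0% were called higher with 1 ng/mL (37 of 137) and 27.0% with 5 ng/mL (38 of 141). The highest ND of the other members was 6.16 for miR-145-5p, 4.73 for miR-145-3p and 3.90 for miR-143-5p, so they could not enter. In BEAS-2B cells no member reached an ND of 8, since miR-143-3p stood at 2.67, 6.19 and 6.64.

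A second rule admitted low counts, with at least 10 counts over the compared libraries and an interval wholly beyond 1.4-fold. By it, 4 of the 4 members were called higher in A549 cells at each dose, beside 12.2% of 468 miRNAs at 1 ng/mL and 15.8% of 461 at 5 ng/mL. In BEAS-2B cells 1 member, miR-143-3p, had enough counts and was called higher at both doses, beside 6.12% of 474 and 6.57% of 487 miRNAs, and the other 3 members stayed below the count minimum. In A549 cells miR-143-5p, miR-145-5p and miR-145-3p reached the minimum only through the treated libraries, as did miR-143-3p in BEAS-2B cells. Members that entered in this way could hardly be called lower. Because the members were also chosen on these contrasts, the counts are given without further reading.

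Ordered by the difference in ND, the members took the first 4 places of 468 in A549 cells at 1 ng/mL, with miR-143-5p first, then miR-145-5p, miR-143-3p and miR-145-3p. At 5 ng/mL they stood at places 1, 3, 6 and 8 of 461, in the order miR-143-5p, miR-145-3p, miR-145-5p and miR-143-3p. miR-143-3p was first of 474 and of 487 miRNAs in BEAS-2B cells. The places of the low-count members rest on the pseudocount of 1. With a pseudocount of 10, miR-143-3p was first in every comparison with control, while in A549 cells miR-145-5p took places 2 and 10, miR-145-3p places 29 and 21, and miR-143-5p places 33 and 41 at 1 and 5 ng/mL. The median log2 ratio of all these miRNAs lay between 0.00 and 0.10.

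**Figure D3:**
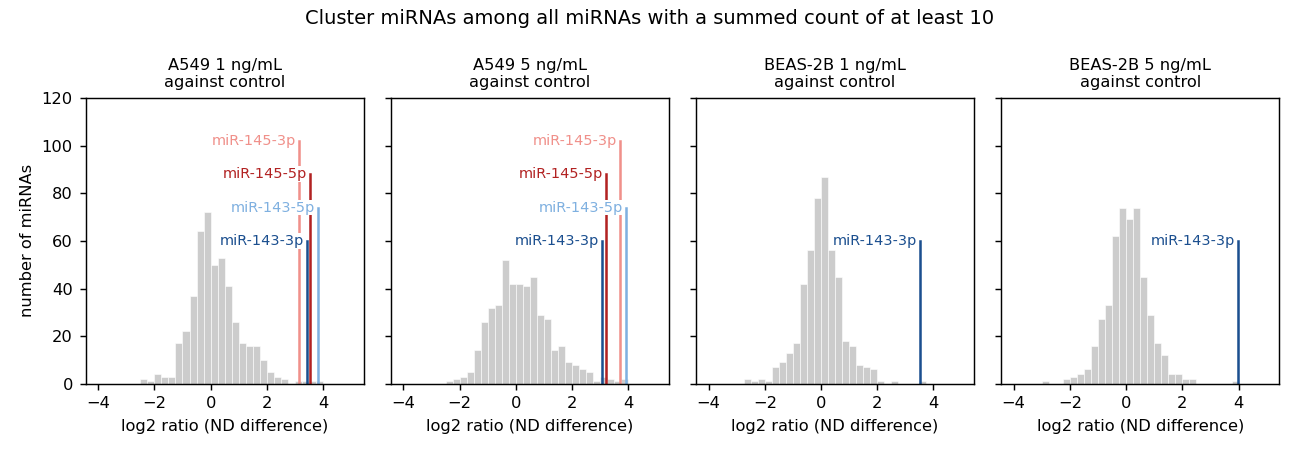
Number of miRNAs against the log2 ratio to control (difference in ND) for each treated library, over all miRNAs with a summed count of at least 10, with vertical lines at the cluster members that reached this minimum. The lines, whose heights carry no value, lay at the right edge, from 3.05 to 3.90 in A549 cells at 5 ng/mL and at 3.97 for miR-143-3p in BEAS-2B cells, and the value of miR-143-5p depends on the pseudocount because its control count was 0.

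Between the doses, miR-143-3p was the member measured most precisely. In A549 cells miR-143-3p at 5 ng/mL was 0.773-fold (0.716 to 0.835) its level at 1 ng/mL. The ratio was 1.07 (0.446 to 2.54) for miR-143-5p, 0.795 (0.539 to 1.16) for miR-145-5p and 1.50 (0.761 to 3.01) for miR-145-3p, all with intervals that included no difference. No member of the 4 passed the second rule, beside 3.36% of 476 miRNAs in either direction. The lower miR-143-3p at the higher dose depended on scaling, since by total count the ratio was 0.948 (0.878 to 1.02).

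In BEAS-2B cells the ratio of 5 to 1 ng/mL was 1.38 (0.996 to 1.92) for miR-143-3p and 0.847 (0.195 to 3.68) for miR-145-5p. Neither of the 2 members with enough counts was called, beside 2.65% of 453 miRNAs. On the log2 scale, the change of miR-143-3p from 1 to 5 ng/mL was lower in A549 than in BEAS-2B cells by 0.84 (difference -0.84, interval -1.30 to -0.37). The difference lay below 0 with its whole interval under all 7 scalings, but each line had 1 culture per dose.

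The response of miR-143-3p to 1 ng/mL did not differ between lines beyond counting error, with a difference in log2 fold change of -0.30 (-1.46 to 0.85). At 5 ng/mL the difference was -1.14 (-2.27 to -0.0051), and its interval included 0 under 4 of the other 6 scalings. These intervals for differences between lines use the Poisson variance of the log counts.

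The lines differed in level at every dose. miR-143-3p was 28.6-fold (13.5 to 72.4) higher in A549 than in BEAS-2B cells without TGF-β1, 23.2-fold (18.0 to 30.4) with 1 ng/mL and 13.0-fold (10.6 to 16.1) with 5 ng/mL. Treated BEAS-2B cells stayed below untreated A549 cells, at no more than 99.0 against 154 normalised counts, and miR-10b-5p also separated the lines in this way. miR-145-5p was at least 2.25-fold higher than the floor in untreated A549 cells (exact lower limit 1.24), 12.1-fold (4.96 to 38.6) with 1 ng/mL and 11.4-fold (4.56 to 36.7) with 5 ng/mL.

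The minor arms followed the same order of lines in treated cells. miR-145-3p was 4.91-fold (1.42 to 26.2) higher in A549 cells at 1 ng/mL and 13.1-fold (3.21 to 115) at 5 ng/mL, and miR-143-5p was 3.76-fold (1.03 to 20.6) and 7.12-fold (1.59 to 65.5) higher. By the second rule, higher levels in A549 cells were called for 1 of 1 member with enough counts in the controls, beside 23.5% of 503 miRNAs. At 1 ng/mL it was 3 of 4, beside 26.0% of 481, and at 5 ng/mL 4 of 4, beside 27.5% of 483. Apart from miR-143-3p in treated cells, the members reached the count minimum only through the A549 library. Under 5 of the other 6 scalings the number at 1 ng/mL was 2, and under 3 of them the number at 5 ng/mL was 3.

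The balance within the cluster was measured from counts of the same library, which no scaling can move and which played no part in choosing the members. The 2 arms of a hairpin come from 1 precursor molecule, and usually 1 of them is kept. For miR-143 the 3p arm prevailed, and the 5p arm made up 0.964% of its reads over all libraries (30 of 3112). In A549 cells the share of miR-143-5p was 0.778% (0.415 to 1.33) with 1 ng/mL and 1.07% (0.556 to 1.87) with 5 ng/mL. In the A549 control it was 0 of 148 reads, which allows a share of up to 2.03% by the floor of 3 counts and 2.46% by the exact interval, so no shift with treatment was detectable at this depth.

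In treated BEAS-2B cells miR-143-5p made up 3 of 65 reads at 1 ng/mL, or 4.62% (0.962 to 12.9), and 2 of 103 at 5 ng/mL, or 1.94% (0.236 to 6.84). The odds of the 5p arm in A549 against BEAS-2B cells were 0.162 (0.0431 to 0.911) with 1 ng/mL and 0.548 (0.120 to 5.11) with 5 ng/mL. The difference at 1 ng/mL rests on 3 reads of miR-143-5p in BEAS-2B cells.

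For miR-145 the 5p arm prevailed less, and the 3p arm took 25.3% (19.1 to 32.3) of its reads over all libraries (45 of 178). In A549 cells miR-145-3p gave 1 of 6 reads without TGF-β1, 19.5% (11.8 to 29.4) with 1 ng/mL and 31.4% (20.9 to 43.6) with 5 ng/mL. The odds ratio between the doses was 1.88 (0.853 to 4.21), an interval that included no difference. In BEAS-2B cells miR-145-3p had 3 of 8 reads at 1 ng/mL and 2 of 7 at 5 ng/mL, and miR-145 had no reads in the control.

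A shift in the balance between the hairpins was not detectable at this depth. In A549 cells miR-145 made up 3.90% (1.44 to 8.29) of cluster reads without TGF-β1, 4.95% (3.98 to 6.07) with 1 ng/mL and 5.89% (4.62 to 7.39) with 5 ng/mL. The odds ratio to control was 1.28 (0.553 to 3.66) and 1.54 (0.658 to 4.43). The BEAS-2B share was 0 of 7 reads without TGF-β1, 11.0% (4.85 to 20.5) with 1 ng/mL and 6.36% (2.60 to 12.7) with 5 ng/mL. Between the main arms, A549 cells held 29.6, 23.7 and 23.0 reads of miR-143-3p per read of miR-145-5p at 0, 1 and 5 ng/mL. Treated BEAS-2B cells held 12.4 and 20.2. Such ratios between miRNAs also carry the differing efficiency with which a library kit captures each sequence, which was not measured.

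**Figure D4:**
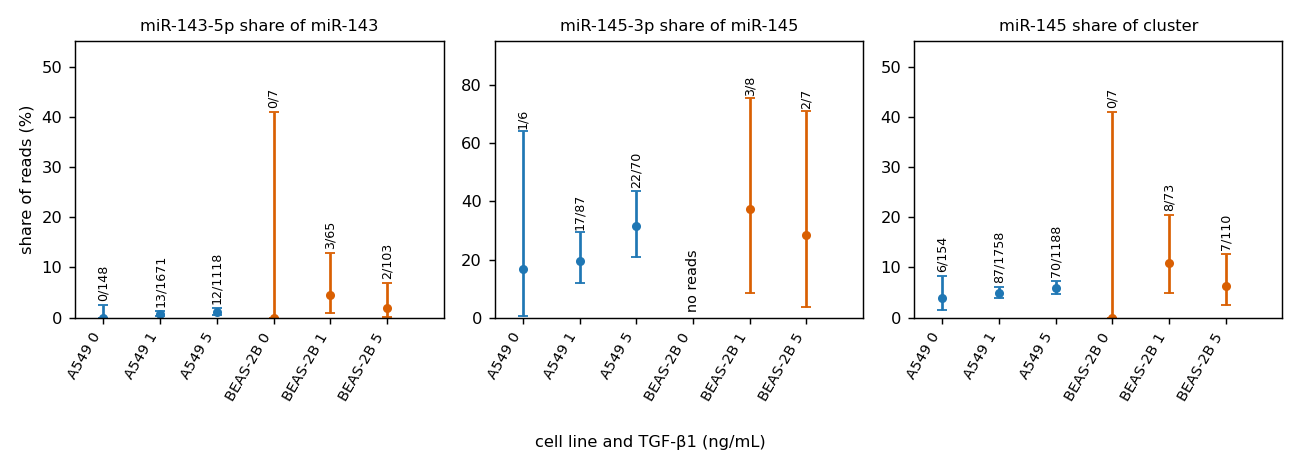
Share of reads (%) in each library for the minor arm of miR-143 (left), the minor arm of miR-145 (middle) and miR-145 within the cluster (right), with exact binomial intervals and the reads behind each share above the bar. Within A549 cells (blue) the intervals of the 3 libraries overlapped in each panel, and those of BEAS-2B cells (orange) were wide because the totals were 7 to 110 reads.

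Within 1 Mb of the cluster, 2 further hairpins gave measured miRNAs, which unlike the cluster were taken by position and not with an increase known. The count of miR-378a-3p, a miRNA from the PPARGC1B gene 304 kb downstream, was 1106, 924 and 738 in A549 cells and 395, 323 and 363 in BEAS-2B cells. Its ratio to control was 0.806 (0.738 to 0.881) and 0.746 (0.679 to 0.820) in A549 cells, and 1.23 (1.06 to 1.43) and 1.17 (1.01 to 1.35) in BEAS-2B cells, where total-count scaling and unscaled counts turned the direction. The arm miR-378a-5p had 6 to 21 counts in A549 and 7 or 8 in BEAS-2B cells. miR-584-5p, at -367 kb on the minus strand, had 2 or 3 counts in A549 cells and 46, 15 and 11 in BEAS-2B cells, with ratios of 0.491 (0.255 to 0.895) and 0.305 (0.142 to 0.597). The arm miR-584-3p had at most 1 count. With 5 ng/mL in the BEAS-2B line the ratio of miR-378a-5p was 1.27 (0.417 to 3.90). Because the cluster was chosen with its increase known, these ratios are not compared in size with those of its members.

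Other miRNAs that mark smooth muscle and stromal cells were listed beside the cluster. Because the cluster was chosen with its increase known, the sizes of the differences are not compared. Of 10 listed miRNAs, the 6 arms of miR-199a, miR-199b and miR-214, which fibroblasts carry at high levels, had between 0 and 10 counts in every library, and miR-214-3p had 0 in all 6. The list as a whole was not low, since miR-100-5p had 14261 to 38938 counts and miR-125b-5p 1767 to 7980. Both were higher in BEAS-2B than in A549 cells at each dose. miR-10b-5p went the other way, with 407, 374 and 277 counts in A549 cells and 4, 2 and 3 in BEAS-2B cells. In A549 cells, 2 of the 4 with enough counts were called higher at 1 ng/mL and 3 of 4 at 5 ng/mL, beside 12.2% and 15.8% of all miRNAs. The median log2 ratios were 0.65 and 0.61, beside 0.03 and 0.10 over all miRNAs, but 0.19 and -0.15 once the 8 members with any count entered. In BEAS-2B cells 0 of 4 were called in either direction, with medians of 0.01 and -0.20. miR-218-5p was counted 170, 325 and 310 times in A549 cells and was 2.04-fold (1.69 to 2.47) the control at 5 ng/mL, but 0.887-fold (0.702 to 1.12) in BEAS-2B cells. At 5 ng/mL in A549 cells the ratio was 1.46 for miR-100-5p, 1.60 for miR-125b-5p and 0.761 for miR-10b-5p.

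A list of miRNAs described as raised by TGF-β is given in the same way, without a comparison of size. This list was chosen with earlier results of these data known. Of its 12 measured miRNAs, 9 had enough counts in BEAS-2B cells, of which 4 were called higher at 1 ng/mL and 5 at 5 ng/mL, beside 6.12% and 6.57% of all miRNAs. The 4 were both arms of miR-21, miR-181a-5p and miR-181b-5p, joined by miR-424-5p at 5 ng/mL, so related miRNAs were counted separately. None of the 9 was called lower, and the medians were 0.44 and 0.83, beside 0.00 and 0.07 over all. In A549 cells 2 of 9 were called higher and 1 lower at 1 ng/mL (median 0.23), and 2 of 8 higher and 2 lower at 5 ng/mL (median -0.15), where 12.2% and 15.8% of all miRNAs were called higher and the medians over all were 0.03 and 0.10. miR-181b-5p, called higher in all 4 comparisons, was 2.81-fold the control in A549 and 2.85-fold in BEAS-2B cells at 5 ng/mL. miR-192-5p was 0.447-fold its control in A549 cells at the same dose. There miR-21-5p was 0.802-fold and not called, and miR-21-3p was 0.568-fold and called lower.

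Among markers of other cell types, 1 miRNA was called higher than control in any treated library, an epithelial one. Of the epithelial list, 1 of 5 was called higher in A549 cells at 1 ng/mL, miR-200b-3p at 1.88-fold (1.53 to 2.33), beside 12.2% of all miRNAs, while 0 of 4 were called at 5 ng/mL or, at either dose, in BEAS-2B cells, with 0 lower throughout. The epithelial medians were 0.91 and 0.51 in A549 cells and -0.20 and -0.04 in BEAS-2B cells. The 7 striated muscle miRNAs summed to 3 to 12 counts in A549 and 5 or 6 in BEAS-2B cells, with miR-133a-3p, miR-206 and miR-208b-3p at 0 in all libraries. The 7 blood miRNAs summed to 23, 13 and 11 counts in A549 cells and 40, 7 and 10 in BEAS-2B cells, led in the controls by miR-486-5p, which was called lower in both treated BEAS-2B libraries, and miR-223-3p was at 0 in all libraries. miR-122-5p of liver and serum had 1, 5 and 6 counts in A549 cells and 14, 7 and 11 in BEAS-2B cells. The endothelial miR-126-3p had 1003, 1280 and 1166 counts in A549 cells and 393, 230 and 197 in BEAS-2B cells. The part of such markers in the levels of the cluster was not tested.

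To find the miRNAs outside the cluster most like miR-143-3p, the root mean square difference over the 4 log2 ratios to control was computed. It covered 222 miRNAs whose normalised count averaged 50 or more. The nearest were miR-455-3p (1.58), miR-181a-2-3p (1.62), miR-455-5p (1.74), miR-27a-5p (1.94) and miR-181b-5p (2.05). All 5 were higher than control in all 4 treated libraries, with log2 ratios between 1.32 and 2.34, below those of miR-143-3p (3.43, 3.05, 3.51 and 3.97). The other cluster members averaged below 50, and outside miRNAs that low were not searched. Their distances were 0.80 for miR-145-5p, 1.42 for miR-145-3p and 1.46 for miR-143-5p. These values rest on low control counts and the pseudocount, and on the contrasts with which the members were chosen. No closeness within the cluster is read from them.

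For miR-145-5p, 395 miRNAs outside the cluster with a mean of at least 10 were compared. Of these the nearest were miR-181a-2-3p (1.14), miR-455-3p (1.27), miR-4497 (1.33), miR-455-5p (1.35) and miR-1273g-3p (1.35). Cluster members were left out of this search, and miR-143-3p lay nearer, at 0.80. These distances rest on 4 ratios from 6 libraries, and the ratios of a line share a control.

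**Figure D5:**
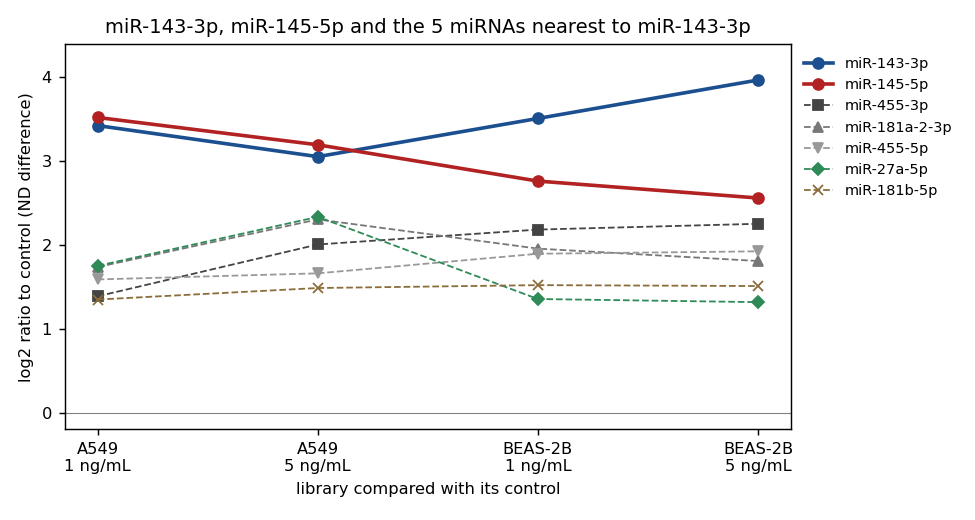
Log2 ratio to control (difference in ND) of miR-143-3p, miR-145-5p and the 5 miRNAs outside the cluster nearest to miR-143-3p, for the 4 treated libraries. The solid lines of the cluster lay between 2.56 and 3.97, above the dashed lines of the 5 nearest miRNAs, which lay between 1.32 and 2.34, and the BEAS-2B values of miR-145-5p are set by a control count of 0 and the pseudocount.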

How the data were processed

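For each cell line and TGF-β1 dose, 1 small RNA library was built with the NEBNext kit. The values that the authors deposited are raw counts of reads for each mature miRNA. The submitters' processing notes name Bowtie2 and bedtools. Their roles and versions, the genome build, the miRNA release and the handling of strand are not given in the sources used here. Groups were taken from the sample labels.

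Counts were scaled by TMM over all 6 libraries with edgeR 4.0.16 in R 4.3.3, and ND was log2(normalised count + 1). The study's ND of at least 8 and fold change of at least 1.4 were used, applied to the greater ND of the libraries compared, since its own scaling was not stated. Intervals of differences in fold change between lines used the Poisson variance of log counts, and those of ratios were exact conditional binomial (Clopper-Pearson) 95% intervals, and reads are not independent molecules. A count of 0 allows 3 counts, which is 3.33 to 4.74 CPM. With 1 library per group no test was run, and a fit over all 6 libraries with cell line as a block was not made.

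Named are the 4 members, miRNAs sharing a seed with a member, miRNAs within 1 Mb with 10 counts in a library, and list members with 10 counts over the compared libraries. The 5 miRNAs outside the cluster nearest to miR-143-3p and to miR-145-5p are also named. miR-584-3p and other miRNAs below these counts are named so that each hairpin or list is complete. The members and lists were chosen with earlier results of these data known. Alternatives were DESeq2 1.42.0 size factors, TMM on miRNAs with a summed count of at least 10, total count with and without miR-21-5p, upper quartile, no scaling, pseudocounts of 0.5 and 10, ND of at least 7 or 9, a fold change of at least 2 and a summed count of at least 50. Sequences came from RefSeq (GRCh38.p14) and gene models from GENCODE 29. Python 3.11.15, numpy 2.4.6, pandas 2.3.3, scipy 1.17.1 and matplotlib 3.10.9 were used. The procedure was run on simulated Poisson counts as a check of the code. These had no variation between cultures, so that run says nothing about such variation.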

Additional observations from a re-analysis of the deposited data

Results flagged for a closer look

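With 1 library per group, no library could be set against others of its group. A pair of results went opposite ways in the cell lines, and in neither was the difference tested. From 1 to 5 ng/mL miR-143-3p changed by -0.37 on the log2 scale in A549 cells and by 0.46 in BEAS-2B cells, a difference of -0.84 (95% interval -1.30 to -0.37, counting error only). Neither direction was secure alone. By total count the A549 change was -0.076 (-0.19 to 0.034), and the BEAS-2B interval was -0.0063 to 0.94. The neighbouring miR-378a-3p was lower than control in both treated A549 libraries and higher in both treated BEAS-2B libraries, with a difference at 5 ng/mL of -0.65 on the log2 scale. In A549 cells its log2 fold changes for the lower and higher dose were -0.31 and -0.42. Those of BEAS-2B cells were 0.30 and 0.23, but -0.13 and -0.18 with total-count scaling, so the opposite direction depends on the scaling.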

How the results depend on the processing

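The labels give no replicate numbers to pair, and a paired fit with cell line as a block was not run. No replicate could be left out, as groups held single libraries. Of 200 values of log2 ratios of members recomputed under the alternatives, 185 stayed within their counting interval, 15 moved and 0 changed sign past the criteria. The 18 differences between lines and the 6 arm shares stayed within their intervals, and of 12 list medians 11 moved by less than 0.5 on the log2 scale once members with any count entered. In A549 cells the median of the stromal list went from 0.65 to 0.19 at 1 ng/mL and from 0.61 to -0.15 at 5 ng/mL. Smaller shifts turned the sign in 3 others, from 0.01 to -0.30 (stromal, BEAS-2B, 1 ng/mL), from -0.15 to 0.01 (TGF-β list, A549, 5 ng/mL) and from -0.04 to 0.23 (epithelial, BEAS-2B, 5 ng/mL).

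For miR-143-3p, upper-quartile scaling gave log2 ratios of 3.16 and 2.68 at 1 and 5 ng/mL in A549 cells and 3.40 for A549 against BEAS-2B cells at 5 ng/mL. The ratio of 5 to 1 ng/mL in A549 cells was -0.076 by total count and -0.58 without scaling. A pseudocount of 10 gave 1.20 and 1.26 for miR-143-5p, 1.29 and 1.69 for miR-145-3p and 2.40 and 2.12 for miR-145-5p at 1 and 5 ng/mL in A549 cells. For miR-143-3p it gave 2.41 and 2.83 in BEAS-2B cells and 3.41 between the controls, and for A549 against BEAS-2B cells at 5 ng/mL 2.14 for miR-145-5p and 1.57 for miR-145-3p. Scaled by total count, all miRNAs had a median log2 ratio of -0.40 (1 ng/mL) and -0.33 (5 ng/mL) in BEAS-2B cells and 0.25 in A549 cells at 5 ng/mL.

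Of 90 counts of called miRNAs, 70 stayed within 1.5 times. By the study's criteria in A549 cells at 1 ng/mL, 37 became 23 by total count, 24 by upper quartile and 19 at 2-fold. By the interval rule, a 2-fold limit gave 30 and 44 for A549, 10 and 13 for BEAS-2B, 0 and 2 between doses, and 71 and 83 between lines in the controls and at 1 ng/mL. Upper quartile gave 47 in A549 cells at 5 ng/mL. Total count and no scaling gave 11 and 9 for BEAS-2B with 1 ng/mL, 14 and 14 with 5 ng/mL, 36 and 27 between doses in A549 cells, and 69 and 76 between the controls. Depth limits the minor arms and miR-145 in BEAS-2B cells, which had at most 5 counts each.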
